A study of Mus musculus with 2 samples.

Results

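The E protein and Id genes of the mouse were examined for peaks of tagged Sox4. Taken by gene symbol from the list of genes deposited beside each peak, they were 7 genes (Tcf3, Tcf12, Tcf4, Id1, Id2, Id3 and Id4) of the 20953 protein-coding genes counted. Sox4, a SOX family factor that binds DNA through an HMG box, is required by B-cell progenitors. The material was chromatin of C57BL/6 progenitor B cells from embryonic fetal liver. The cells carried, one retrovirus after another and with a sort after each, BirA (a biotin ligase), p190 Bcr-Abl (an oncogenic kinase that immortalized them), SE-Cre and BAP-Sox4, a Sox4 with a tag that BirA biotinylates. The series held 1 library of fragments pulled down on streptavidin beads and 1 library of input chromatin from the same kind of cells. Both therefore carried the oncogene, the Cre construct and the retroviral Sox4. Values of the input library were not analysed here, nor was a pull-down without tagged Sox4, so peaks alone cannot establish binding by Sox4. With 1 library no value has a replicate error, and no test between conditions was possible.

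E proteins are basic helix-loop-helix transcription factors that bind E-box sites in DNA as dimers. Tcf3 encodes the E2A proteins, Tcf12 encodes HEB and Tcf4 encodes E2-2. E2A starts the B-lineage program, and HEB and E2-2 act beside it. Id proteins have the helix-loop-helix dimerization domain but no basic region, so a dimer of an Id and an E protein cannot bind DNA. The balance between both families sets how much E protein activity a lymphoid progenitor has.

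All 3 E protein genes were marked at an annotated transcription start (TSS), and of the 4 Id genes Id3 was. Listed means that a peak lay inside the gene or up to 25 kb from either end. In all, 4 of the 7 genes were listed, as against 48.9% of all protein-coding genes. The same 4 genes had a promoter peak, meaning a peak interval within 5 kb of a TSS (57.1%, exact 95% interval 18.4 to 90.1%, for counting only), against 32.8% of all genes. They also had a peak over a TSS itself, against 28.4% of all genes, and a gene-body peak, meaning one inside the gene or up to 10 kb from its ends, against 40.8% of all genes. Counting a peak only for the gene that the file names as closest left the promoter count at 4, against 27.7% of all genes. Id1, Id2 and Id4 were listed for no peak, by symbol, by RefSeq accession or by an older symbol. A gene listed nowhere had no peak within 25 kb that passed the authors' threshold, or was missing from their annotation. The weakest peak retained in the list had a score of 50.03, and the lowest tag number was 25, so weaker signal at these 3 genes was not detectable in this file.

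The promoter sequences below show what the marked and unmarked starts look like. They are the 250 bases before an annotated start, 5′ to 3′, from RefSeq (GRCm38.p6), whereas peak positions are on mm9. Capitals mark E-boxes (CANNTG, the E protein site) and ACAAAG or its reverse complement CTTTGT, letters of the HMG-box site that SOX and TCF/LEF factors recognise. Tcf12 is shown at its main start, where its strongest peak lay, and at an internal start where none was listed. Tcf3 and Id3 had a peak, and Id2 and Id4 had none.
Tcf12, main start (chr9:72111820-72112069, minus strand): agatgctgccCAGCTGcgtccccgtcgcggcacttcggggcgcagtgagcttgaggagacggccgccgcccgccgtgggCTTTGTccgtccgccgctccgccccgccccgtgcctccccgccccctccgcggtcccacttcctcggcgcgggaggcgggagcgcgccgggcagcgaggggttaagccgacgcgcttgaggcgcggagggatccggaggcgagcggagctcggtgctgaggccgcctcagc
Tcf12, internal start (chr9:71896097-71896346, minus strand): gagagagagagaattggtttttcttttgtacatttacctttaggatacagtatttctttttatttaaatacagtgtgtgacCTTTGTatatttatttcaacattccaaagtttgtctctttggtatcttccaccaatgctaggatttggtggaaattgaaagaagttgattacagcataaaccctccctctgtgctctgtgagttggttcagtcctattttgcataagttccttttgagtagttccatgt
Tcf3 (chr10:80433636-80433885, minus strand): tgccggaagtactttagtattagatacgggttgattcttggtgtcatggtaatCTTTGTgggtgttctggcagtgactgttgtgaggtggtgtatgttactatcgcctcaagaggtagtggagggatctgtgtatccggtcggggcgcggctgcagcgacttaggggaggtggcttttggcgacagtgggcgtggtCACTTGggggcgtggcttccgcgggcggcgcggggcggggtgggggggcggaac
Id3 (chr4:136143572-136143821, plus strand): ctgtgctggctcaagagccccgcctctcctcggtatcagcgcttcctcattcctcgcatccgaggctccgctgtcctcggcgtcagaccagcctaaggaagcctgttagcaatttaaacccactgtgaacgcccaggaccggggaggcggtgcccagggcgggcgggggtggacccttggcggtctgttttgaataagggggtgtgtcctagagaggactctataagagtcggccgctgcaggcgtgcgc
Id2 (chr12:25096093-25096342, minus strand): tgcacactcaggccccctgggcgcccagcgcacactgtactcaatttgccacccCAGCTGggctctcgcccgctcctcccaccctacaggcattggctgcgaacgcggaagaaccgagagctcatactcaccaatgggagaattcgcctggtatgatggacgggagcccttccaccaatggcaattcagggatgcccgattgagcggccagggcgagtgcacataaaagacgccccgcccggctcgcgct
Id4 (chr13:48260866-48261115, plus strand): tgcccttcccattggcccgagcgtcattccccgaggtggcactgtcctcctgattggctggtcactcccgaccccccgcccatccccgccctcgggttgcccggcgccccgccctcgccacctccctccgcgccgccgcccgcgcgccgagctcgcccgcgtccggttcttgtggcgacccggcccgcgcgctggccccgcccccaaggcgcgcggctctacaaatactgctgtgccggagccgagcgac

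Of the 7 genes, 5 were taken from this promoter table, with 7 starts in all. Promoters of chromosome 18, where Tcf4 lies, were left out of this comparison, and no promoter sequence was available for Id1. Searched on both strands in the whole window (250 bases before and 50 after the start), ACAAAG was present once at the main Tcf12 start, once at the internal Tcf12 start and once at Tcf3. The match at the main Tcf12 start lay 171 to 166 bases before the start. Of all 32851 promoters in the table, 18.7% held ACAAAG. The longer form AACAAAG was in none of the 7 windows and in 5.85% of all promoters, and CAGGTG, the E-box that E proteins prefer, was in none of the 7 and in 20.2% of all. Any E-box (CANNTG, which includes CAGGTG) was found at the 3 Tcf12 starts, at Tcf3 and at Id2, and in 72.3% of all promoters. The Id3 and Id4 windows held none of these motifs. A match of letters is a description and not a site of binding.

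Base composition separated the Tcf12 starts more than it separated marked from unmarked genes. The window at the main Tcf12 start had 71.7% GC and an observed to expected CpG ratio of 1.06, and the window of the nearby second start had 75.7% GC and a ratio of 1.06. The internal Tcf12 start had 36.3% GC and no CpG. Tcf3 had 61.7% GC and Id3 60.0%, with CpG ratios of 1.03 and 0.70. Id2 and Id4, without a listed peak, had 63.3% and 73.3% GC and ratios of 0.71 and 0.99, so both lay within the range of the marked starts. The median over all promoters of the table was 52.7% GC with a ratio of 0.38. Over the 6229 windows of protein-coding genes with a peak over a TSS it was 63.3% with a ratio of 0.83.

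The peaks listed for the 4 genes numbered 14, and 11 of them had the member as their closest gene. Each peak has 3 kinds of value, all the authors' own. The tag number counts the reads in the peak, and the fold is the peak caller's enrichment over the background it expected. The score rises as the caller's p-value falls (taken here as -10 log10 p). The 8 peaks closest to an E protein gene ran from 38 to 246 tags (median 89), from 3.73 to 9.79 in fold (median 6.17) and from 50.7 to 880.7 in score (median 189.2). Of these 8, 6 had a score above the median of all peaks and 7 a fold above it. The 3 Id3 peaks ran from 56 to 60 tags, from 3.47 to 5.0 in fold and from 71.6 to 75.6 in score. None of these 3 reached the median score of all peaks, and 1 exceeded the median fold. Over all 8730 peaks the median tag number was 71, the median fold 4.43 and the median score 104.9.

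**Figure D1:**
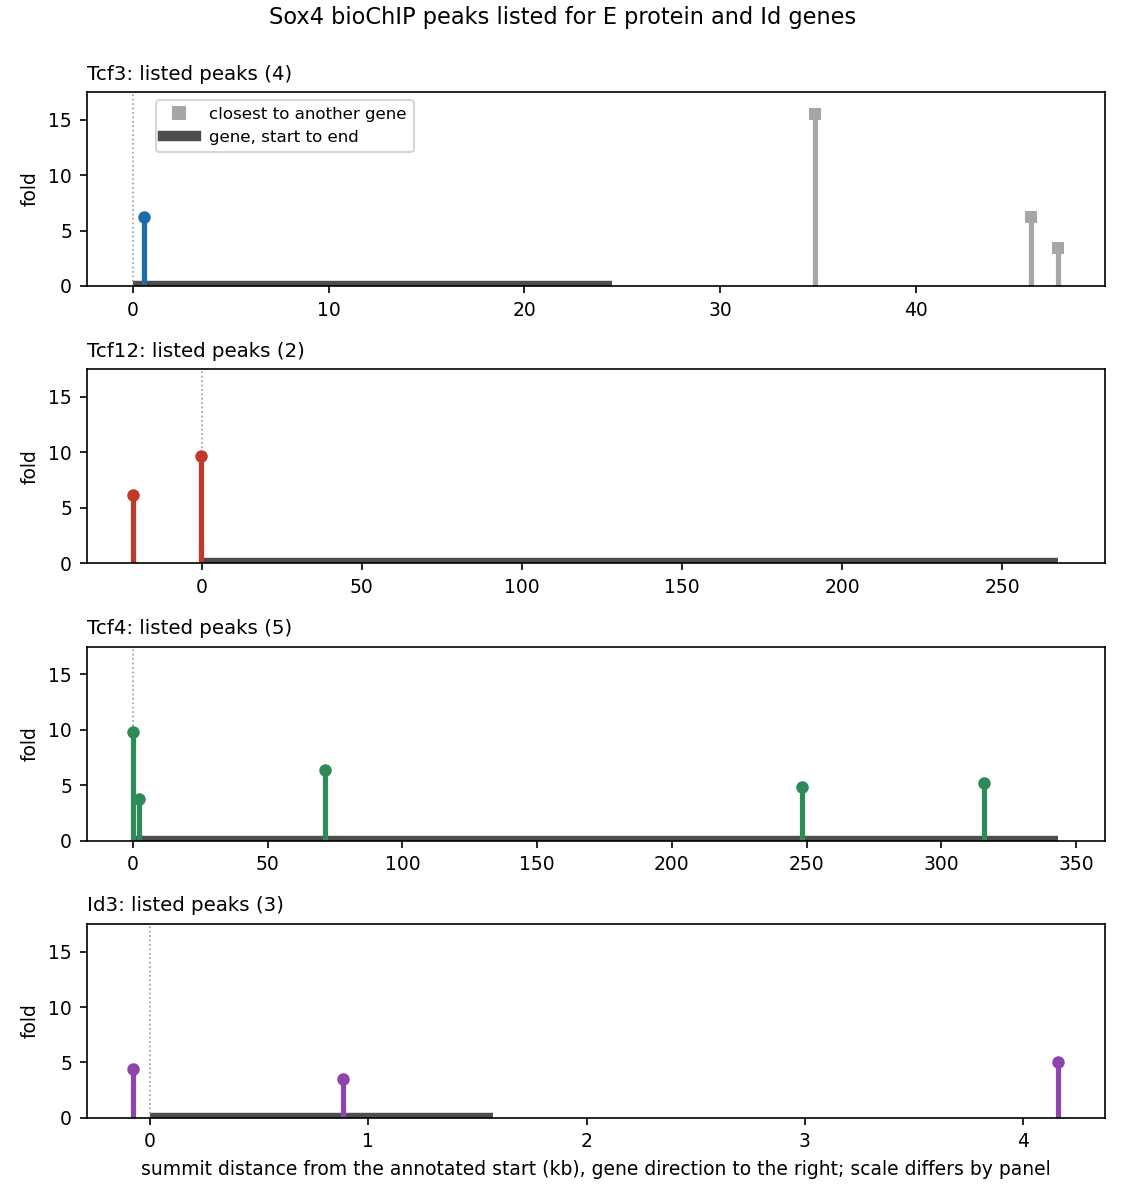
Fold (linear axis) of each listed peak, drawn at the distance of its summit from the earliest annotated start, in kb along the gene, for Tcf3, Tcf12, Tcf4 and Id3; the dark bar is the gene, and grey squares are peaks closest to another gene. Each gene has a peak at its start, the Tcf4 peaks spread along the gene up to 316015 bp from the start, and the 3 Id3 peaks lie within 4162 bp of the start.

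Among the 11 peaks closest to one of the 7 genes, the Tcf12 start peak had the most tags and the highest score. The interval on chromosome 9 from 71958358 to 71960223 (mm9) held 246 tags (exact Poisson 95% interval 216 to 279) and had a fold of 9.68. The score of 880.7 ranked 163 of 8730. It was 1865 bp wide and covered the starts of all 3 Tcf12 transcripts listed, NM_001253862, NM_001253865 and NM_011544. Start positions were worked back from the deposited distances of peaks that do not overlap them. They put the first start 43 bp from the summit, which lay upstream of it, and the start of NM_001253862 661 bp from the same summit. The distance from each of these starts to the end of the gene was 267567 and 266949 bp in both builds, which ties the printed main start to the deposited one.

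A further Tcf12 peak lay upstream of the gene, 20812 bp from the first start and inside the listing limit. Its 124 tags (103 to 148) gave a fold of 6.13 and its score was 257.6. Its score exceeded 91.3% and its fold 86.2% of the 471 peaks in the upstream class. No other gene was listed beside either Tcf12 peak. No peak was listed inside the remainder of this 268 kb gene, and so none at the internal start that lies 51844 bp before the gene's end in GRCm38.p6.

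Tcf3 had 1 peak of its own, over its start. On chromosome 10 from 79895275 to 79897207 (mm9), this peak had 226 tags (197 to 257), a fold of 6.20 and, at rank 460, a score of 466.4. The starts of all 8 Tcf3 transcripts listed fell at 1 position within it, and the summit lay 578 bp inside the gene. Tcf3 and Tcf12 thus had start peaks of overlapping tag intervals, which are wide (1932 bp and 1865 bp, against a median of 980 bp for promoter peaks), while the folds were 6.20 and 9.68. The Tcf3 start in RefSeq GRCm38.p6 is 24094 bp from the gene's end, against 24488 bp in the deposited annotation, so the printed Tcf3 window was not tied to the deposited start.

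The other 3 peaks listed for Tcf3 lay past its end and were closest to other genes. The strongest of all 14 by tags was one of these. It lay 8929 bp past the Tcf3 end and covered the start of Mbd3, which encodes a subunit of the NuRD deacetylase complex, and had 280 tags (248 to 315), with fold 15.5 and score 923.5. It is the only peak of fold 10 or more listed for any of the 7 genes, so 1 of 7 was listed for such a peak, against 3.24% of all genes, and 0 of 7 with the closest gene only, against 1.51% of all genes. The remaining peaks lay 21032 and 22463 bp past the Tcf3 end, at the start and in an exon of Mex3d, which encodes an RNA-binding protein. They held 69 and 87 tags at folds of 6.19 and 3.42. Uqcr11 was also listed beside all 3 of these peaks, and Plk5 beside the Mex3d peaks.

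Tcf4 had 5 peaks, all inside the gene or at its start and all closest to Tcf4. The peak over the first start, on chromosome 18 from 69503677 to 69504495 (mm9; NM_013685), held 79 tags (62.5 to 98.5) at a fold of 9.79, the highest fold of any peak closest to one of the 7 genes. Its score of 196.6 ranked 1833, while its fold ranked 399. The interval was 818 bp wide, and its summit lay 43 bp upstream of the start. A weaker peak began 252 bp inside the second annotated start (NM_001083967) and held 60 tags (45.8 to 77.2) at a fold of 3.73. At the 5′ end of Tcf4 the 2 peaks were 1131 bp apart and differed in fold, while their tag intervals overlapped.

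The other 3 Tcf4 peaks were intronic, at 69667, 246721 and 314472 bp from the second start. They held 57 tags (43.2 to 73.9), 99 tags (80.5 to 121) and 38 tags (26.9 to 52.2), at folds of 6.32, 4.85 and 5.19. The middle one had the highest score of these, 181.9, which exceeded 85.0% of the 841 intronic peaks, and the last, with 50.7, was just above the lowest score in the list. Tcf4 is 345 kb long. Of the 556 protein-coding genes of 300 kb or more, 7 (1.26%) were the closest gene of 5 or more peaks, against 23 (0.11%) of all 20953 genes.

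**Figure D2:**
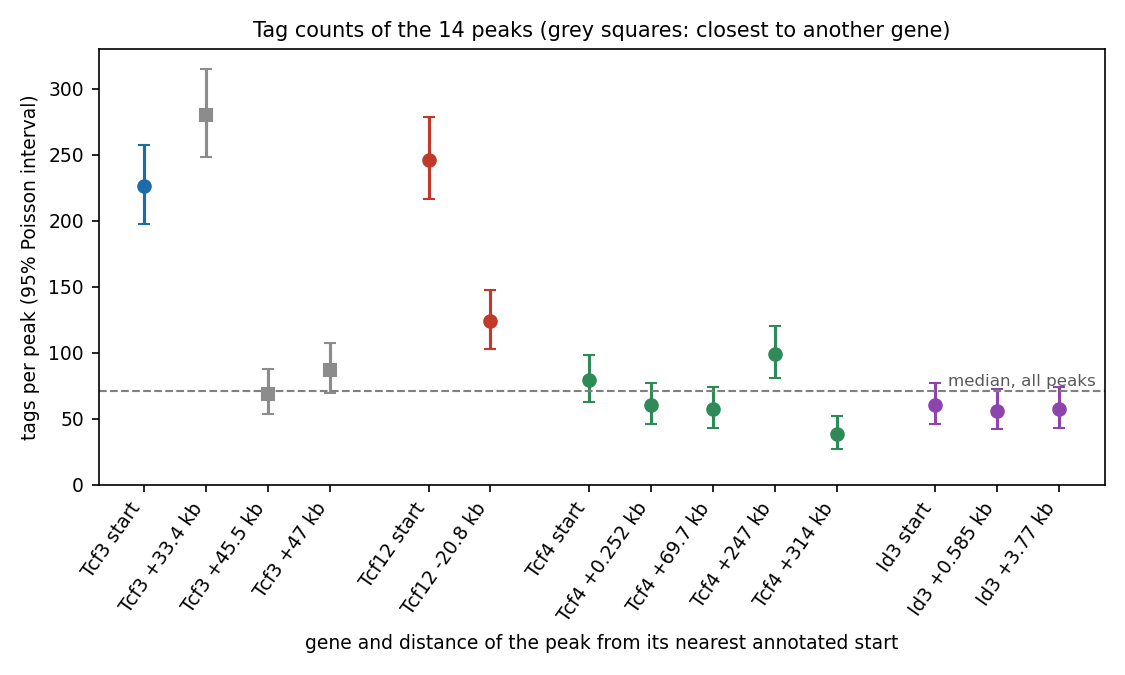
Tags per peak (points, with exact Poisson 95% intervals for counting error) for the 14 peaks, named by gene and by distance from the nearest annotated start; the dashed line is the median of all 8730 peaks, 71 tags. The start peaks of Tcf3 (226) and Tcf12 (246) stand above that line, as does the upstream Tcf12 peak (124), and the 3 Id3 peaks (56 to 60) have intervals that overlap each other.

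Id3, a gene of 1571 bp, had 3 peaks of near-equal tag number within a short stretch of chromosome 4. The first, from 135699285 to 135700016 (mm9; NM_008321), covered the start, with its summit 78 bp upstream, and held 60 tags (45.8 to 77.2) at a fold of 4.40. The second began 585 bp inside the gene and ended 167 bp short of its end, with 56 tags (42.3 to 72.7) at a fold of 3.47. The third lay 2200 bp past the end, from 135703506 to 135704212, with 57 tags (43.2 to 73.9) at a fold of 5.0. All 3 lay within 5 kb of the start and count as promoter peaks by that rule, although the deposited class of the second and of the last was the gene end. E2f2, a cell cycle gene, was also listed beside that last peak, and its start lay 24097 bp away. The span from start to gene end was 1571 bp in the deposited annotation and 1570 bp in GRCm38.p6, which ties the printed Id3 window to the start peak to within 1 bp. The second peak began 305 bp after the first ended. Its fold exceeded 13.9% of all peaks, the start peak's 49.7% and the downstream peak's 66.2%.

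The Id3 peaks scored below the start peaks of the E protein genes. Their scores exceeded 28.6%, 25.3% and 29.0% of all peaks, whereas those of the Tcf12, Tcf3 and Tcf4 start peaks exceeded 98.1%, 94.7% and 79.0%. Within the deposited position class, the Id3 scores exceeded 22.7% of promoter peaks (the start peak) and 45.6% and 52.5% of gene-end peaks. Those of the Tcf12, Tcf3 and Tcf4 start peaks exceeded 97.9%, 94.0% and 75.5% of promoter peaks. The last Tcf4 peak, with 38 tags and a score of 50.7, was below all 3 Id3 peaks on both measures, and the second Tcf4 peak, at a fold of 3.73, was below 2 of them in fold. With only the higher-scoring 4365 peaks, a promoter peak remained at the 3 E protein genes and at no Id gene, against 18.9% of all genes. Promoter peaks of fold 5 or more were found at 4 of the 7 genes, against 11.9% of all genes, and Id3 counted there through the peak that lies past the gene.

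**Figure D3:**
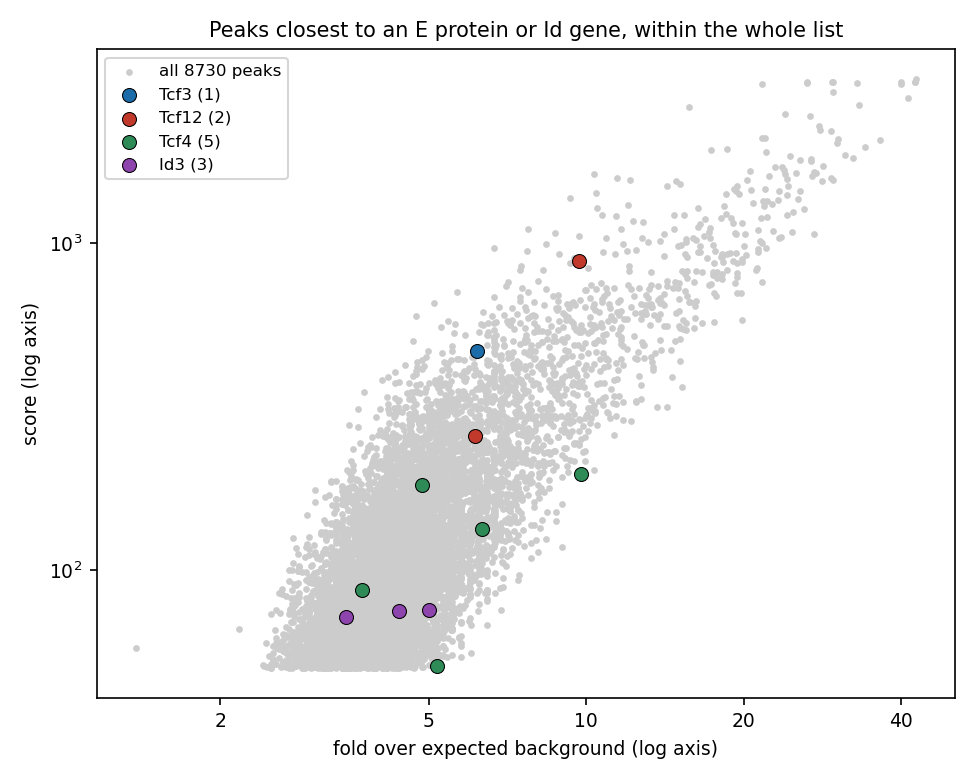
Score against fold (both log axes) for the 11 peaks whose closest gene is Tcf3, Tcf12, Tcf4 or Id3 in colour and for all 8730 peaks in grey. The Tcf12 start peak (fold 9.68, score 880.7) lies highest of the coloured points, the first Tcf4 peak has a similar fold (9.79) at a lower score (196.6), and the 3 Id3 peaks lie low, at scores of 71.6 to 75.6.

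On each side of the unmarked Id genes, the nearest gene in order that was the closest gene of a peak was looked up. The search went on until it met such a gene, so finding one is not a result about these loci. Of all 20953 protein-coding genes, 30.7% were the closest gene of a peak. Only gene order was used, so how far the peaks of these neighbours lay from the Id genes was not measured. By gene order in RefSeq, the next protein-coding gene after Id1, Cox4i2, was the closest gene of a peak with 85 tags at a fold of 4.25. On the other side of Id1, with 1 gene between, H13 had 2 peaks, the higher-scoring one with 95 tags at a fold of 6.47. The direct neighbours of Id2, Kidins220 and Rnf144a, had peaks with 112 tags at a fold of 8.36 and 66 tags at a fold of 5.16. Around Id4 the nearest genes with a peak were Dek, with 1 gene between, at a fold of 3.91, and Phf2, with 3 genes between, at a fold of 5.54. Each of these peaks lay beyond 25 kb of the Id gene, or else that gene was missing from the deposited annotation.

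Genes of E protein partners and cofactors had promoter peaks at a share near that of genes in general, 8 of 22 (36.4%, against 32.8% of all genes). In a split made after the values were seen, and so only a description, these were 1 of 12 bHLH partner genes and 7 of 10 cofactor genes, each against the same 32.8% of all genes. The 1 bHLH gene was Lyl1, a blood-cell partner of E proteins, at a fold of 4.38. The highest scores were at Ep300, encoding the acetyltransferase p300 (fold 4.74, score 291.0), at Ldb1, encoding a LIM-domain scaffold (fold 7.01, score 265.2), at the acetyltransferase gene Kat2b (fold 5.33, score 251.2) and at Lmo4 (fold 5.38, score 217.1). The bHLH genes without a promoter peak include Tal1 and Tal2, and regulators of muscle, nerve and pancreas such as Myod1, Neurod1 and Ptf1a. Among the cofactor genes, Lmo2, Runx1t1 and Kat2a had none.

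Genes known as E2A targets in B-cell progenitors had promoter peaks in 14 of 20 cases (70.0%, against 32.8% of all genes), and 17 of 20 had a gene-body peak, against 40.8% of all genes. High scores were found at Bcl11a, a transcription factor gene of early lymphoid cells (fold 6.22, score 466.2), at the Ikaros gene Ikzf1 (fold 7.36, score 300.3) and at Cd79a (fold 8.41, score 299.2, in a peak closest to Arhgef1). Rag2, Dntt and Irf4 had neither kind of peak. Of 10 genes taken to control Id genes or proteins, mostly by BMP and SMAD signalling or by stability of the protein, 8 had a promoter peak (80.0%, against 32.8% of all genes). The highest scores among these were at Smad4 (fold 5.19, score 368.1) and Smad5 (fold 6.24, score 297.5), which carry BMP signals to Id genes, at Usp1, a deubiquitinase that stabilises Id proteins (fold 4.60, score 281.1), and at the BMP receptor gene Bmpr2 (fold 4.57, score 162.9). Another BMP receptor gene, Bmpr1a, and Egr1 had neither kind of peak. The median score of the best promoter peak was 180.8 in the partner list, 142.4 in the target list and 127.1 in the Id control list, against 119.2 over all genes with one. These lists were chosen with earlier results of these data known, so their shares are a description only. They were not tested, and expression was not measured here.

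**Figure D4:**
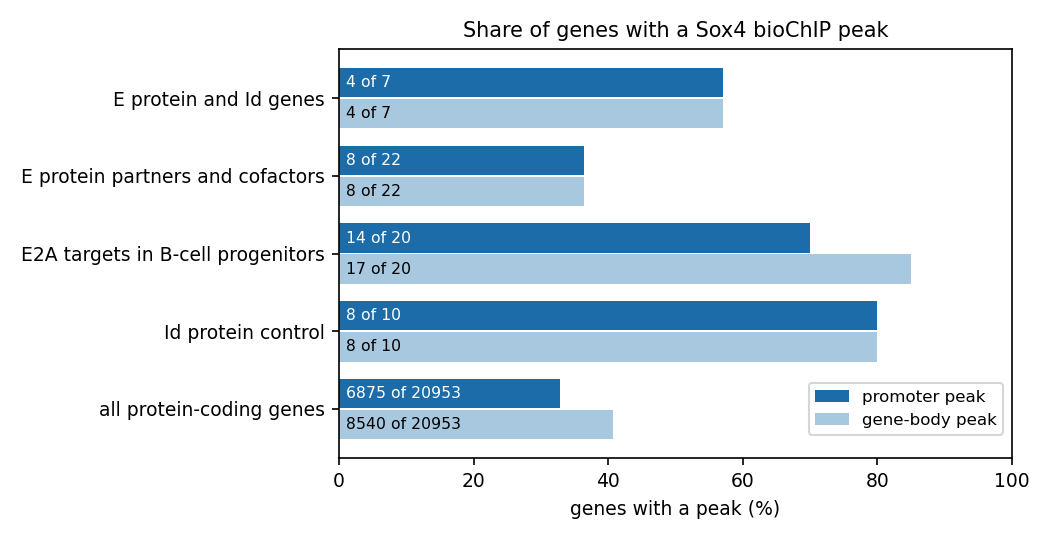
Percent of genes with a promoter peak (dark bars, within 5 kb of a TSS) and with a gene-body peak (light bars, inside the gene or up to 10 kb from its ends) for the 7 E protein and Id genes, the 3 lists of related genes and all 20953 protein-coding genes. The promoter bar is 57.1% for the 7 genes, 36.4% for partners and cofactors, 70.0% for E2A targets, 80.0% for Id control and 32.8% for all genes. The 7 genes and the 3 lists were chosen with earlier results of these data known.

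Markers of the labelled cell type were set beside these values. Of 9 progenitor B markers, 7 had a promoter peak, against 32.8% of all genes, and 9 a gene-body peak, against 40.8% of all genes. None of 4 hepatocyte markers and 1 of 3 erythroid markers, Klf1, had either. Most of the progenitor B markers were also in the list of E2A targets above, so their share is not a separate result. The promoter peaks counted for Cd79a and Vpreb1 were closest to other genes, Arhgef1 and Top3b. A peak at a marker gene is not a measure of its expression.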

How the data were processed

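The deposited list holds peaks of the Sox4 pull-down library on mm9. Bowtie 0.12.8 and MACS 1.4.2 were used, per the submitters' processing notes, which give no parameters. The library that supplied the background, the total depth and the annotation tool are not given in the sources used here. The deposited tag numbers are whole-number counts per peak (763284 over all peaks), not normalized. The fold, as deposited, is the peak caller's enrichment over the expected background on a linear scale, and it was not recomputed from the tag numbers. The score, as deposited, was taken to be -10 log10 p. Other deposited columns give positions and distances in bp, 0 where the peak covers the site, printed as listed.

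Python 3.11.15 with pandas 2.3.3 and scipy 1.17.1 was used. Listed transcripts (15228) were matched to RefSeq genes by accession (14992), symbol (192) or older symbol (32), and 12 did not match. Background genes were protein-coding with an NM accession on the autosomes and X. Tag intervals are exact Poisson, shares exact Clopper-Pearson, and both cover counting error only. Gene counting was tested on simulated peaks of a single base, and the motif search on planted copies of CAGGTG alone. Named genes were the 7 members, genes listed beside their peaks, neighbours of the Id genes without one, and up to 4 highest-scoring genes per list; any other gene was picked with its values in view. A gene picked by this rule is left out of the text. The members and lists were chosen with earlier results of these data known. Alternatives covered window, flank, peak threshold, closest gene and ranking measure.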

Additional observations from a re-analysis of the deposited data

How the results depend on the processing

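The counts of the 7 genes with a listed, promoter or gene-body peak stayed at 4 with TSS windows of 1 and 20 kb, flanks of 0 and 25 kb, the closest gene only and the deposited promoter class, and were 3 with the higher-scoring peaks. With peaks of fold 10 or more, they were 0 for promoter peaks, 1 for gene-body peaks and 1 for listed peaks. The count with a peak of fold 10 or more, which was 1, became 4 at a fold of 5 and 0 at a fold of 20. With the higher-scoring peaks, promoter peaks were counted at 9 of the 20 E2A targets and at 4 of the 10 Id control genes, against 18.9% of all genes. With the closest gene only, they were counted at 13 and 8, against 27.7% of all genes. TSS windows of 1 and 20 kb gave 11 and 15 of the E2A targets, and 8 of the Id control genes each time. The shares of all genes at those 2 windows were not counted. Ranks depended on the measure. By score, fold and tags, the Tcf12 start peak ranked 163, 417 and 177, that of Tcf3 ranked 460, 1405 and 234, and the first Tcf4 peak ranked 1833, 399 and 3586. The cause was not tested. No paired analysis was possible because each group holds 1 library. Total depth is not given, so its effect on weak peaks was not tested. The last Tcf4 peak (38 tags, score 50.7) lay close to the lowest score in the list, 50.03.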

Other observations

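Id3 was one of few small genes with several peaks. Of 2259 protein-coding genes of up to 2 kb, 135 (5.98%) were the closest gene of a peak, 25 (1.11%) of at least 2 and 3 (0.13%) of at least 3. The same shares over all 20953 genes were 30.7%, 4.81% and 1.05%. These 3 were Id3 with 3 peaks, Ier2 with 4 and Junb with 3. Ier2 and Junb are known as immediate early genes, switched on within minutes by growth signals, and Id3 is also known to respond to such signals. They were singled out after their values were seen, expression was not measured here, and no test was made of what they share.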
